A study of Mus musculus with 16 samples.

Results

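The Wnt signalling genes on the Affymetrix MG-U74Av2 chip were followed in newborn mouse inner ears that lacked COUP-TFI. A probe set was taken as a member where the platform annotation gave it a single symbol made of Wnt, Fzd, Sfrp, Dvl, Dkk or Axin and a number, or one of Ctnnb1, Lef1, Tcf7, Tcf7l1 and Tcf7l2. This rule found 46 probe sets of 37 genes, among 12422 tested probe sets and 8251 genes with a symbol of their own. They comprised 16 probe sets of 14 Wnt ligands, 11 of 8 Frizzled receptors, 6 of 6 secreted antagonists, 6 of 5 cytoplasmic effectors and 7 of 4 nuclear effectors, while Tcf7 had 0 probe sets.

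The COUP-TFI-/- mice carried a deletion of this orphan nuclear receptor (gene symbol Nr2f1) in every tissue, and the reference ears were wild-type, both of strain 129SvEv at P0. Whole inner ears were pooled by genotype because each ear yields little RNA, and each of 4 pools (2 COUP-TFI-/- and 2 wild-type) was hybridized to 2 chips. Set A held 1 pool of each genotype, and set B, hybridized on another occasion, held the other 2. The same 8 chips were deposited after normalization with GCRMA, on the log2 scale, and with dChip, as linear intensities. Duplicate chips share their RNA, so the pool was the replicate, and the number of ears behind each pool is not given in the sources used here.

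Wnt proteins are secreted, lipid-modified ligands that bind Frizzled receptors together with Lrp co-receptors at the cell surface. Dishevelled then recruits Axin away from the complex that destroys β-catenin, and the β-catenin that accumulates enters the nucleus and acts with Lef1 and Tcf factors on target genes. A branch that does not use β-catenin orients cells in the plane of a tissue, and in the inner ear it aligns the hair bundles and lengthens the cochlear duct, while β-catenin signalling shapes the otic placode and the dorsal otocyst.

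The deleted gene separated the genotypes on every chip. Nr2f1 (102715_at) had GCRMA levels of 5.27, 5.08, 4.68 and 4.69 in COUP-TFI-/- chips A1, A2, B1 and B2, against 8.83, 8.72, 7.90 and 7.74 in wild-type chips, a difference of -3.37 ± 0.11 (SE). Duplicate chips correlated at 0.996 to 0.997. Sets A and B differed for 25.8% of all probe sets in GCRMA and for 11.7% in dChip, against 0.105% (13 probe sets) and 0.00805% (1 probe set) that differed by genotype. Of 12 listed sensory hair cell genes, 7 were on the chip, with wild-type GCRMA means between 5.21 and 8.14, and of 16 supporting cell genes 12 were, between 4.46 and 10.4. The files hold no detection calls, and brightness differs between probes, so whether the dimmer of these genes were expressed was not tested. In whole ears, fewer cells of a type and less RNA per cell cannot be told apart.

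None of the Wnt members passed the test for a difference between COUP-TFI-/- and wild-type ears. In limma, with the duplicate chips averaged and the set as a block, 0 of 46 members passed an adjusted p of 0.05 in either normalization, beside the background of 0.105% and 0.00805% given above. No member reached an unadjusted limma p of 0.05 either, a level that 4.58% of all probe sets reached in GCRMA and 2.13% in dChip. With chips in place of pools as replicates, 4 of 46 members (8.70%) reached it in limma in GCRMA, against 13.0% of all, and 7 of 46 (15.2%) in dChip, against 14.8%. The methods' 2-way analysis of variance on the chips put 5 of 46 (10.9%) there in each normalization, against 10.8% and 12.5% of all, and none of the members passed after adjustment in either fit. The differences, COUP-TFI-/- minus wild-type, were small: their median size was 0.06 log2 units in GCRMA, the same as the 0.06 of all probe sets, and the largest was 0.22. Of the 46 differences, 23 were positive and 23 negative in GCRMA, and 18 and 28 in dChip, where all probe sets divided into 5748 positive and 6673 negative.

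How far the members could have differed was read from the 95% limma intervals. In GCRMA the outermost bounds were -0.47 and 0.35 log2 units, or 0.724-fold and 1.28-fold. All 46 intervals lay inside a 1.5-fold change in either direction, as did those of 12297 of all 12422 probe sets. In dChip the outermost bounds were -0.60 and 0.61, or 0.659-fold and 1.53-fold. There 43 of 46 intervals lay inside 1.5-fold, against 11639 of all 12421 probe sets, and 46 lay inside 2-fold, against 12293. These intervals rest on 2 pools per genotype and borrow their spread from all probe sets, and they describe whole ears.

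Chip by chip, the genotypes overlapped for every member. In 0 of 46 probe sets did the 4 COUP-TFI-/- chips lie apart from the 4 wild-type chips, against 2.26% of all probe sets in GCRMA and 1.89% in dChip. Within sets, the COUP-TFI-/- chips lay outside the wild-type chips in the same direction in both A and B for 1 of 46 members in GCRMA (Wnt3, below) and 1 of 46 in dChip (Wnt7a, below), against 8.26% and 8.15% of all probe sets. The difference had the same sign in both sets and both normalizations for 5 of 46 members (10.9%), against 21.8% of all probe sets: Wnt7a, Fzd1, Fzd2 and Fzd3 98169_s_at were on the low side and Fzd3 98348_at on the high side.

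**Figure D1:**
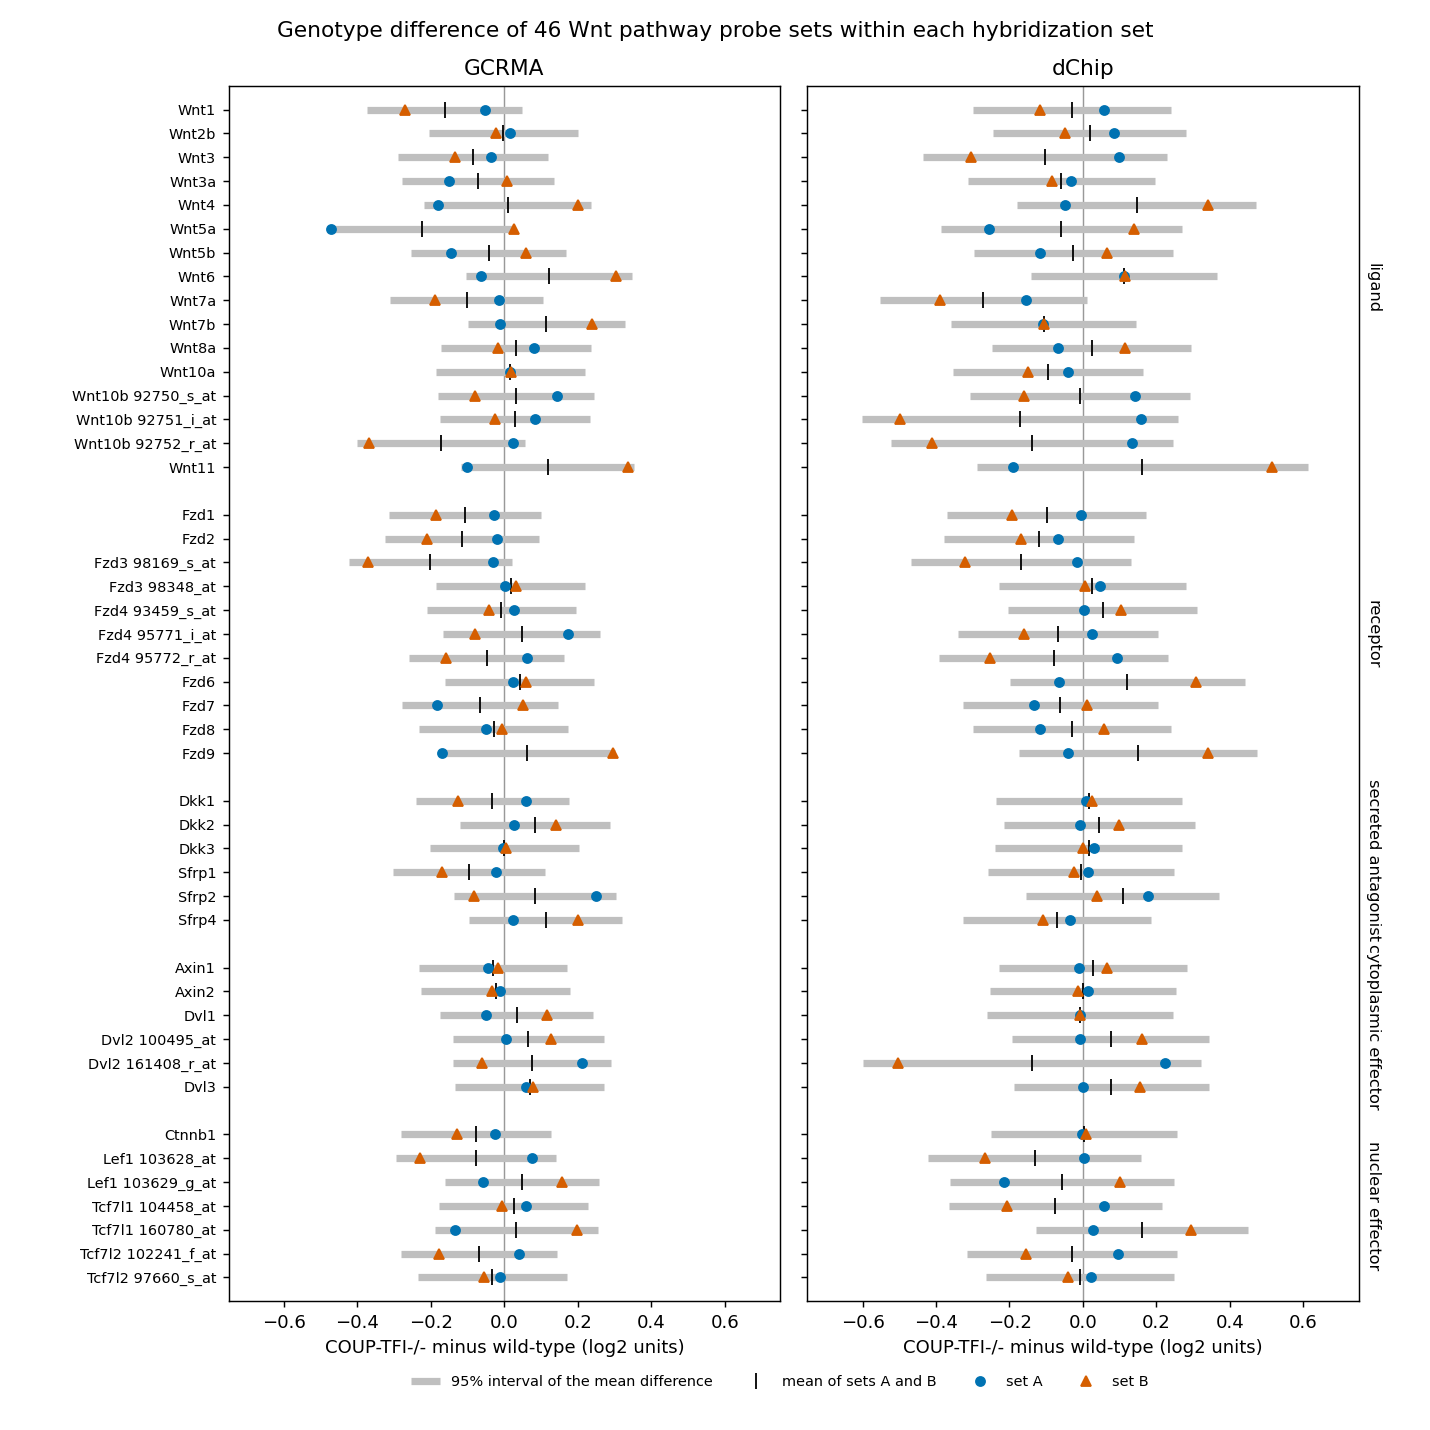
Difference between COUP-TFI-/- and wild-type ears (log2 units, horizontal axis) for the 46 Wnt pathway probe sets, grouped by role, in GCRMA (left) and dChip (right). Circles are set A, triangles set B, ticks the mean of both and grey bars its 95% limma interval; none of the 46 members passed the genotype test in either panel, and the GCRMA bounds reach no further than -0.47 and 0.35.

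Among the ligands, Wnt5a had the largest GCRMA difference, nearly all of it from set A, and it did not pass the test. Of the 16 ligand probe sets, 8 were on the high side and 8 on the low side in GCRMA (median difference 0.00), and 5 and 11 in dChip (median -0.04). Ligand probe sets were dim, with 13 of 16 wild-type means below the median probe set of the chips, although brightness also depends on the probes and does not rank the genes. Wnt5a, a ligand of the β-catenin-independent branch that takes part in the outgrowth of the cochlea, had GCRMA levels of 7.12 and 7.36 in COUP-TFI-/- set A and 6.30 and 5.99 in COUP-TFI-/- set B, against 7.62 and 7.82 in wild-type set A and 6.12 and 6.12 in wild-type set B. The COUP-TFI-/- chips were below the wild-type chips in set A, and on both sides of them in set B. Set A gave a difference of -0.47, set B one of 0.03, and the mean was -0.22 ± 0.11 (SE) with an unadjusted limma p of 0.070 and an adjusted p of 1.00. In dChip the sets gave -0.26 (A) and 0.14 (B), from intensities of 201 and 214 (set A) and 140 and 124 (set B) in COUP-TFI-/- ears, against 243 and 254 (set A) and 115 and 123 (set B) in wild-type ears.

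Wnt1 and Wnt10b stood next. Wnt1, a founding ligand of the β-catenin branch in the dorsal neural tube, had 7.87, 7.81, 7.60 and 7.59 in COUP-TFI-/- chips A1, A2, B1 and B2, against 7.97, 7.82, 7.79 and 7.93 in wild-type chips. Only the set B chips lay apart, and the mean difference of -0.16 ± 0.10 (SE) in GCRMA was -0.03 in dChip. Wnt10b, a ligand known for holding back fat cell formation, had 3 probe sets that did not move alike. Probe set 92752_r_at had 5.52, 5.59, 5.76 and 5.68 in COUP-TFI-/- chips, against 5.52, 5.54, 5.98 and 6.19 in wild-type chips, which is 0.02 for set A and -0.37 for set B. Probe set 92750_s_at had 5.86, 6.00, 6.01 and 5.78 in COUP-TFI-/- chips, against 5.84, 5.73, 5.87 and 6.09 in wild-type chips, a mean difference of 0.03. Probe set 92751_i_at lay at the dim end of the chips, between 3.31 and 3.46 in COUP-TFI-/- ears and between 3.22 and 3.41 in wild-type ears. In dChip all 3 were on the low side, by -0.14, -0.01 and -0.17 in this order. In the platform's naming, r and i mark probe sets built under relaxed rules or with few probes, and s marks probes shared by several transcripts.

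The other ligands among the 10 members with the lowest GCRMA p were on the high side in GCRMA, each through set B there. Wnt6 had 6.48, 6.49, 6.87 and 6.70 in COUP-TFI-/- chips A1, A2, B1 and B2, against 6.56, 6.54, 6.48 and 6.48 in wild-type chips, and Wnt7b, an epithelial ligand, had 7.04, 7.11, 7.29 and 7.27 against 7.01, 7.17, 7.04 and 7.05. Wnt11, a ligand of the β-catenin-independent branch, had 6.08, 6.16, 6.75 and 6.64 in COUP-TFI-/- chips, against 6.27, 6.18, 6.30 and 6.42 in wild-type chips. In all 3 genes both COUP-TFI-/- chips of set B lay above both wild-type chips of set B, with differences there of 0.30, 0.24 and 0.34, while in set A they were -0.06, -0.01 and -0.10. The mean differences of 0.12 for Wnt6, 0.11 for Wnt7b and 0.12 for Wnt11 each had an adjusted limma p of 1.00. In dChip, Wnt6 differed by 0.11 in set A and in set B alike, and Wnt7b turned to -0.11 in both sets.

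Wnt7a, which helps to orient hair bundles in cochlear cultures, had the lowest genotype p of any member in dChip. Its intensities were 256 and 272 (set A) and 325 and 341 (set B) in COUP-TFI-/- ears, against 298 and 290 (set A) and 392 and 485 (set B) in wild-type ears. COUP-TFI-/- chips were below wild-type chips within each set, although the groups overlapped across sets. The sets gave -0.15 (A) and -0.39 (B), with a mean of -0.27 and an interval of -0.55 to 0.01 (unadjusted limma p of 0.056, adjusted p of 1.00). In GCRMA the mean was -0.10. Wnt3 was lower within both sets in GCRMA, with 7.64, 7.64, 7.53 and 7.42 in COUP-TFI-/- chips, against 7.65, 7.70, 7.59 and 7.63 in wild-type chips, but its set A difference of -0.04 was 0.10 in dChip. Wnt2b, Wnt3a, Wnt4, Wnt5b, Wnt8a and Wnt10a had mean differences between -0.07 and 0.03 in GCRMA.

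**Figure D2:**
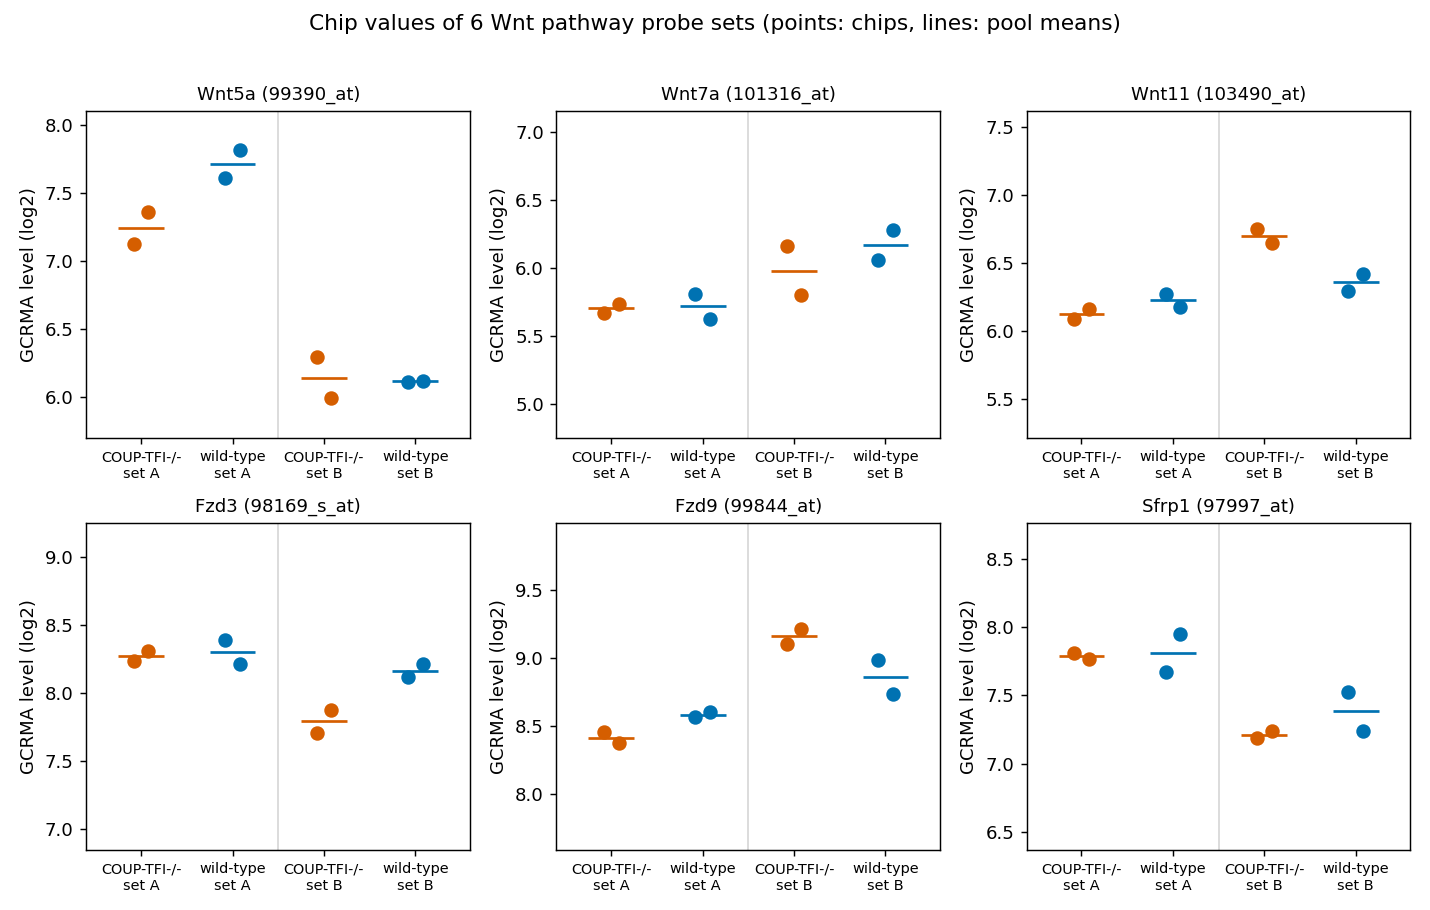
GCRMA level (log2, vertical axis, each panel spanning the same range) of 6 Wnt pathway probe sets on every chip, with COUP-TFI-/- left of wild-type within each set. Points are chips and lines are pool means; Wnt5a lies near 7.1 to 7.8 in set A and near 6.0 to 6.3 in set B in both genotypes, and the order of the genotypes turns between the sets for Wnt11 and Fzd9.

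Of the 8 Frizzled receptors, the seven-pass proteins that bind Wnt ligands, Fzd3 had the largest difference, on 1 of its 2 probe sets. In GCRMA, 4 of the 11 receptor probe sets were on the high side and 7 on the low side (median -0.03), as in dChip (median -0.06). Fzd3, which acts in planar polarity and axon guidance, had 8.24, 8.31, 7.71 and 7.88 on probe set 98169_s_at in COUP-TFI-/- chips A1, A2, B1 and B2, against 8.39, 8.22, 8.12 and 8.21 in wild-type chips. The genotypes overlapped in set A (-0.03), and in set B both COUP-TFI-/- chips were below both wild-type chips (-0.37). The mean difference was -0.20 ± 0.10 (SE) in GCRMA, with an unadjusted limma p of 0.073, and -0.17 in dChip. The other probe set, 98348_at, had 6.60, 6.60, 6.94 and 6.70 in COUP-TFI-/- chips, against 6.56, 6.64, 6.83 and 6.75 in wild-type chips, a mean difference of 0.02, so that the lower Fzd3 value stands on 1 probe set.

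Fzd1 and Fzd2 were on the low side in both sets and both normalizations. Fzd1 had 7.40, 7.54, 7.37 and 7.50 in COUP-TFI-/- chips, against 7.50, 7.49, 7.61 and 7.63 in wild-type chips, and Fzd2 had 9.57, 9.67, 9.61 and 9.69 against 9.64, 9.64, 9.84 and 9.89. Both genes overlapped between genotypes in set A and not in set B. The mean differences were -0.11 for Fzd1 and -0.12 for Fzd2 in GCRMA, and -0.10 and -0.12 in dChip, with adjusted limma p of 1.00.

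Fzd4, the receptor of Norrin as well as of Wnts and needed for the vessels of the cochlea, had 3 probe sets. The brightest, 93459_s_at, had 9.77, 9.73, 9.16 and 9.04 in COUP-TFI-/- chips, against 9.65, 9.80, 9.09 and 9.20 in wild-type chips, and the genotypes overlapped in both sets (mean difference -0.01). The others lay near the dim end, 95771_i_at between 4.23 and 4.54 in COUP-TFI-/- ears and 4.20 and 4.45 in wild-type ears, and 95772_r_at between 3.56 and 3.97 in COUP-TFI-/- ears and 3.82 and 3.96 in wild-type ears. Fzd9 had 8.46, 8.37, 9.11 and 9.21 in COUP-TFI-/- chips, against 8.57, 8.60, 8.99 and 8.74 in wild-type chips, lower in set A and higher in set B. Fzd6, a planar polarity receptor of the inner ear, had a mean difference of 0.04, Fzd7 of -0.07 and Fzd8 of -0.03 in GCRMA.

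The secreted antagonists, which bind Wnt ligands (Sfrp) or the Lrp co-receptors (Dkk), differed by between -0.10 and 0.11 in GCRMA, with 4 of 6 on the high side. Sfrp4 had 6.65, 6.69, 6.75 and 6.63 in COUP-TFI-/- chips A1, A2, B1 and B2, against 6.72, 6.57, 6.44 and 6.54 in wild-type chips, separate in set B alone, and its mean of 0.11 in GCRMA was -0.07 in dChip. Sfrp1 had 7.81, 7.77, 7.18 and 7.24 in COUP-TFI-/- chips, against 7.67, 7.95, 7.53 and 7.24 in wild-type chips, overlapping in both sets (-0.10 ± 0.10, SE). Sfrp2 had 10.66, 10.62, 10.61 and 10.54 in COUP-TFI-/- chips, against 10.35, 10.43, 10.69 and 10.62 in wild-type chips. In GCRMA the COUP-TFI-/- chips were thus above wild-type chips in set A (0.25) and below them in set B (-0.08). In dChip the sets gave 0.18 (A) and 0.04 (B), with the genotypes overlapping in set B. Dkk1, Dkk2 and Dkk3 had mean differences of -0.03, 0.08 and 0.00.

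Cytoplasmic effectors lay within -0.03 and 0.07 in GCRMA. Axin2, an inhibitor in the destruction complex that is itself a target of β-catenin signalling, had 6.59, 6.68, 6.75 and 6.63 in COUP-TFI-/- chips, against 6.67, 6.63, 6.65 and 6.80 in wild-type chips. The genotypes overlapped in both sets, and the mean difference was -0.02 in GCRMA and 0.00 in dChip, with dChip bounds of -0.25 and 0.25. Axin1, the scaffold of the same complex, differed by -0.03, and the Dishevelled genes Dvl1 and Dvl3 by 0.03 and 0.07. Dvl2 had 7.86, 7.93, 8.16 and 8.13 on probe set 100495_at in COUP-TFI-/- chips, against 7.83, 7.95, 8.03 and 8.01 in wild-type chips, and 7.79, 7.69, 7.91 and 7.94 on 161408_r_at, against 7.47, 7.59, 7.83 and 8.14 in wild-type chips. Both had mean differences of 0.07 in GCRMA, while in dChip they went opposite ways, 0.08 on 100495_at and -0.14 on 161408_r_at.

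Nuclear effectors lay within -0.08 and 0.05 in GCRMA, and none of their 7 probe sets had a wild-type mean below the median probe set of the chips. Ctnnb1, which encodes β-catenin, had 11.65, 11.58, 11.07 and 11.20 in COUP-TFI-/- chips A1, A2, B1 and B2, against 11.60, 11.69, 11.29 and 11.24 in wild-type chips. It overlapped between genotypes in set A and was below wild-type in set B, and its mean difference was -0.08 in GCRMA and 0.00 in dChip. Lef1, a partner of β-catenin on DNA, had 9.40, 9.53, 9.09 and 9.16 on 103628_at in COUP-TFI-/- chips, against 9.40, 9.38, 9.36 and 9.35 in wild-type chips, while its probe set 103629_g_at had 8.23, 8.31, 8.32 and 8.12 against 8.27, 8.39, 8.11 and 8.01. The probe sets went opposite ways in GCRMA, by -0.08 and 0.05, and were both on the low side in dChip, by -0.13 and -0.06.

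Tcf7l1, the Tcf factor that mostly represses, had 9.20, 9.16, 9.24 and 9.20 on 104458_at in COUP-TFI-/- chips, against 9.07, 9.17, 9.24 and 9.21 in wild-type chips. Its probe set 160780_at had 8.91, 8.85, 9.19 and 9.06 in COUP-TFI-/- chips, against 9.05, 8.97, 8.92 and 8.93 in wild-type chips, and both probe sets had a mean difference of 0.03 in GCRMA. In dChip they went opposite ways, by -0.08 on 104458_at and 0.16 on 160780_at. Tcf7l2 had 9.34, 9.35, 9.27 and 8.97 on 102241_f_at in COUP-TFI-/- chips, against 9.38, 9.23, 9.26 and 9.34 in wild-type chips, and 8.44, 8.55, 8.75 and 8.63 on 97660_s_at, against 8.55, 8.46, 8.75 and 8.73 in wild-type chips. Its mean differences were -0.07 and -0.03 in GCRMA, and on both probe sets the genotypes overlapped.

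None of the Wnt members passed the test of whether the genotype difference itself differed between the sets. In limma on the 8 chips with a genotype by set term, 0 of 46 members passed an adjusted p of 0.05, against 0.958% of all probe sets in GCRMA and 0.459% in dChip. At an unadjusted limma p of 0.01 there were 4 of 46 (8.70%) in GCRMA, against 6.01% of all, and 6 of 46 (13.0%) in dChip, against 8.37%. These were Wnt6, Wnt10b 92752_r_at, Wnt11 and Fzd9 in GCRMA, and Wnt3, Wnt4, Wnt10b 92751_i_at and 92752_r_at, Wnt11 and Dvl2 161408_r_at in dChip. With 1 pool of each genotype in a set, this p rests on the spread between duplicate chips, and differences between pools cannot be told apart from differences between sets.

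Wnt11 had the lowest interaction p in both normalizations. Its dChip intensities were 92.3 and 96.1 (set A) and 158 and 168 (set B) in COUP-TFI-/- ears, against 114 and 101 (set A) and 117 and 111 (set B) in wild-type ears. COUP-TFI-/- set B stood above the other 3 pools, and COUP-TFI-/- set A below them. The sets gave -0.19 (A) and 0.51 (B) in dChip (adjusted limma interaction p of 0.054), and -0.10 and 0.34 in GCRMA (0.115). Fzd9 had -0.17 and 0.30 in GCRMA (0.128) and -0.04 and 0.34 in dChip (0.147), and Wnt4 had -0.18 and 0.20 in GCRMA and -0.05 and 0.34 in dChip.

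Striated muscle genes also differed more by genotype in set B than in set A. Of 24 listed striated muscle genes, all measured, 14 had an interaction adjusted p under 0.05 in GCRMA, against 0.958% of all probe sets. Of these 24 genes, 2 (Myh3 and Myh8) were called for genotype in GCRMA, against 0.105%. In dChip 12 were called for interaction, against 0.459%, and 0 for genotype, against 0.00805%. In GCRMA, set A gave the 24 genes a median genotype difference of 0.04 and set B one of 0.83. There 15 of 24 were higher in COUP-TFI-/- ears in set A and 23 of 24 in set B. Their summed dChip intensity was 35750 and 34710 (set A) and 41020 and 43110 (set B) in COUP-TFI-/- ears, against 36880 and 36590 (set A) and 25840 and 25820 (set B) in wild-type ears. Their lowest wild-type GCRMA mean was 6.08. The part of these muscle genes in the GCRMA set B values of Wnt4, Wnt6, Wnt7b, Wnt11 and Fzd9 was not tested.

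The difference between hybridization sets was larger than that between genotypes, and Wnt5a led it. For the set term of the pool fit, 12 of 46 members (26.1%) passed an adjusted limma p of 0.05 in GCRMA, close to the 25.8% of all probe sets. Members higher in set A numbered 5 (10.9%, against 13.6% of all), and members lower in set A numbered 7 (15.2%, against 12.2%). In dChip there were 2 (4.35%, against 6.76%) and 1 (2.17%, against 4.90%), or 3 of 46 in all (6.52%, against 11.7%).

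Wnt5a was 1.35 ± 0.11 log2 units (SE) higher in set A than in set B in GCRMA, a 2.54-fold difference (adjusted limma p of 9.46e-07), and 0.86 higher in dChip (1.82-fold, adjusted limma p of 0.021). The step was 1.10 in COUP-TFI-/- ears and 1.60 in wild-type ears in GCRMA, and 0.66 and 1.06 in dChip, so that no chip of set A overlapped a chip of set B in either genotype. Fzd4 93459_s_at was 0.61 higher in set A (1.53-fold), Sfrp1 0.50 (1.42-fold), Ctnnb1 0.43 (1.35-fold) and Fzd3 98169_s_at 0.31 (1.24-fold) in GCRMA. In dChip these 4 were higher by 0.21, 0.25, 0.40 and 0.23 and did not pass the test.

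Lower in set A were Fzd9 (-0.51), Wnt7a (-0.36), Wnt10b 92752_r_at (-0.36), Wnt5b (-0.36), Wnt11 (-0.35), Wnt4 (-0.32) and Dvl2 161408_r_at (-0.32) in GCRMA. In dChip, Wnt7a (-0.45), Wnt10b 92752_r_at (-0.36), Wnt5b (-0.40) and Wnt11 (-0.44) were lower without passing the test. Wnt4 differed by 0.03 in dChip, so its lower value stands in GCRMA alone. Fzd9 passed in dChip too (-0.61, adjusted limma p of 0.042), and Wnt1 passed in dChip alone (0.55, adjusted limma p of 0.035, against 0.14 in GCRMA). Dvl2 161408_r_at depended on the normalization: its dChip intensities were 1847 and 1580 (set A) and 806 and 756 (set B) in COUP-TFI-/- ears, against 1272 and 1682 (set A) and 1055 and 1159 (set B) in wild-type ears, higher in set A by 0.77 (adjusted limma p of 0.055), where GCRMA had it lower. Its companion 100495_at was -0.19 in GCRMA and -0.11 in dChip. The probe sets of Fzd4 other than 93459_s_at differed between sets by -0.07 and 0.10 in GCRMA, and 98348_at of Fzd3 by -0.20, opposite to 98169_s_at.

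**Figure D3:**
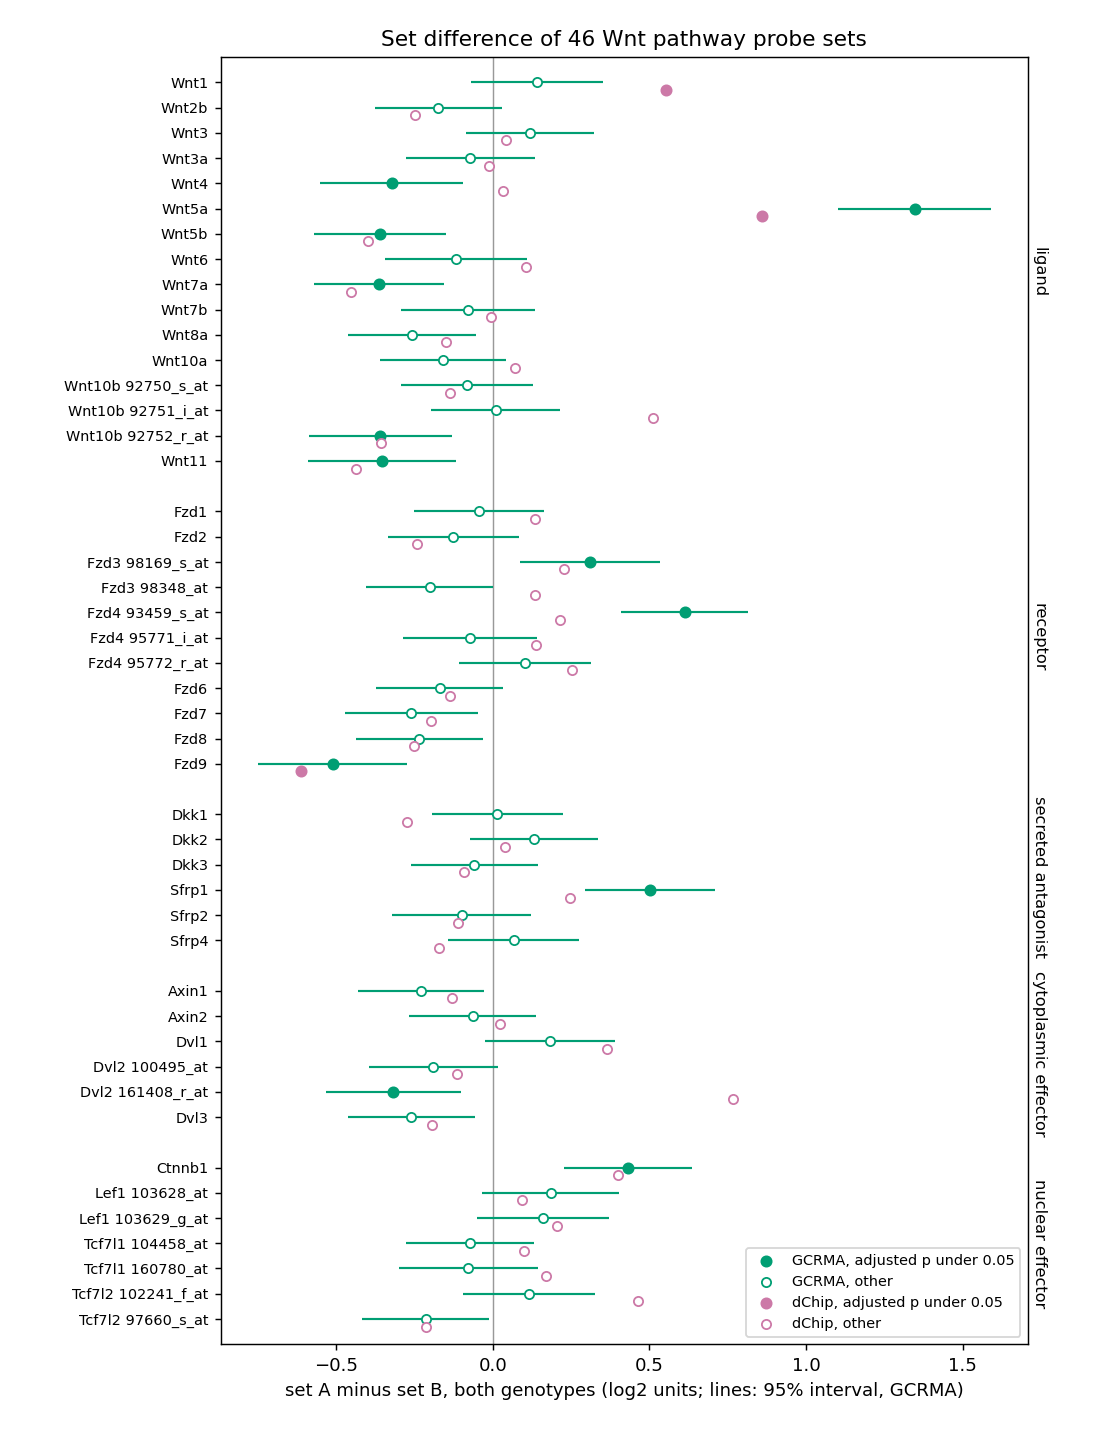
Difference between set A and set B averaged over both genotypes (log2 units, horizontal axis) for the 46 Wnt pathway probe sets, grouped by role. Filled points passed an adjusted limma p of 0.05 (12 in GCRMA, 3 in dChip), open points did not, and lines are 95% limma intervals in GCRMA; Wnt5a, at 1.35, lies farthest from 0.

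Genes of some other cell types differed between the sets as well. Of 10 measured macrophage genes, 0 were called for set in either normalization. Of 24 striated muscle genes, 4 were called higher and 0 lower in set A in GCRMA, and 0 in dChip. Of all probe sets, 13.6% were called higher and 12.2% lower in set A in GCRMA, and 6.76% and 4.90% in dChip. Of 12 measured cartilage genes, 9 were lower and 0 higher in set A in GCRMA (median -0.74), with summed dChip intensities of 26810 and 26940 (set A) and 44410 and 45800 (set B) in COUP-TFI-/- ears, against 25150 and 25040 (set A) and 41070 and 40000 (set B) in wild-type ears. Of 15 neuron genes, 10 were higher and 0 lower in set A (median 0.43), with sums of 9168 and 9020 (set A) and 7525 and 7775 (set B) in COUP-TFI-/- ears, against 9292 and 9665 (set A) and 8471 and 7815 (set B) in wild-type ears. Supporting cell genes had 6 of 12 higher and 1 lower. In dChip the calls were 0 higher and 9 lower for cartilage, 6 and 0 for neuron, and 3 and 1 for supporting cell genes. By genotype, 1 of the 12 supporting cell genes was called lower and 0 higher in COUP-TFI-/- ears in GCRMA, against 0.105% of all probe sets. In dChip 0 were called. Supporting cell sums in dChip were 8216 and 8183 (set A) and 6322 and 6916 (set B) in COUP-TFI-/- ears. In wild-type ears they were 9622 and 9418 (set A) and 7971 and 8367 (set B). The lowest wild-type GCRMA means were 5.67 in the cartilage list, 3.75 in the neuron list and 4.46 in the supporting cell list. Whether the dimmer of these genes were expressed was not tested. The part of the cartilage, neuron and supporting cell lists in the set differences of the Wnt members was not tested either.

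Genes of the wider pathway gave no genotype calls either. Of 176 genes written down as co-receptors, other antagonists, destruction complex, nuclear partners, planar polarity and calcium branch, cell junctions or known targets, 117 were measured and 0 were called for genotype in either normalization, with 1 (0.855%) at an unadjusted limma p under 0.05 in GCRMA and 3 (2.56%) in dChip, against the 4.58% and 2.13% of all probe sets. Myc, a target of β-catenin in many tissues, had 6.25, 6.31, 6.03 and 6.22 in COUP-TFI-/- chips A1, A2, B1 and B2, against 5.81, 6.19, 5.99 and 5.73 in wild-type chips. In GCRMA its COUP-TFI-/- chips were above the wild-type chips within both sets, by 0.28 and 0.27, and the adjusted limma p was 0.752. The chips lay apart in the same direction within both sets for 8.26% of all probe sets. In dChip, Myc was not among the 3 genes at an unadjusted limma p under 0.05. Cd44, another target and an adhesion receptor, differed by 0.19 in GCRMA and -0.02 in dChip. Map3k7 (a kinase), Jun (a transcription factor) and Ephb3 (an ephrin receptor) were the 3 in dChip, with differences of 0.36, 0.26 and -0.33 there and of 0.15, 0.11 and -0.01 in GCRMA.

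Other parts of the pathway gave small differences too. Among co-receptors, Lrp5 differed by 0.08 and Ror2, a Wnt5a receptor, by 0.08 in GCRMA. Of the 12 measured members of that list, 1 was higher and 5 lower in set A in GCRMA, Lrp5 by -0.52. In dChip 0 were higher and 1 lower. The antagonists Frzb and Cer1 differed by -0.02 and -0.15. In the destruction complex list, the scaffold Apc differed by 0.17, and Siah1b, a ubiquitin ligase that can target β-catenin, was the 1 of 117 listed genes (0.855%) called for interaction in GCRMA, against 0.958% of all probe sets, while 0 were called in dChip, against 0.459%. It had 8.44, 8.51, 7.69 and 7.68 in COUP-TFI-/- chips, against 8.40, 8.44, 8.17 and 8.27 in wild-type chips, or 0.05 (A) and -0.53 (B) (adjusted limma interaction p of 0.036), and in dChip the sets gave -0.01 and -0.48 (0.078). Ctbp1, a corepressor, differed by -0.17 in GCRMA. On the planar polarity side, the small GTPases Rac2 and Rhoa differed by 0.09 and 0.13, and among junction genes Cdh2, which encodes N-cadherin, by -0.16 and Ctnnd2 by -0.16, all in GCRMA. In the junction list 4 of 7 genes were higher in set A and 0 lower in GCRMA, Cdh2 by 1.25, and 2 and 0 in dChip, where Cdh2 differed by 1.21. Over all 117 genes, 23 (19.7%) were higher and 12 (10.3%) lower in set A in GCRMA, against the 13.6% and 12.2% of all probe sets, and 11 (9.40%) and 5 (4.27%) in dChip, against 6.76% and 4.90%.

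The promoters of the members were read for the letters that COUP-TF receptors and Tcf factors prefer. RefSeq windows (GRCm38.p6) of 300 bases, 250 before and 50 after each start, were at hand for 25 of the 37 genes, 33 windows in all. The COUP-TF half-site AGGTCA, searched on both strands, was in 0 of 33, against 16.3% of 32851 windows of all genes, and the direct repeat AGGTCANAGGTCA, which holds it, was in 0 of 33, against 0.0396%. The Tcf and Lef core CTTTGAT was in 2 of 33, against 3.73%, and its variant CTTTGAA in 1 of 33, against 5.14%. The member windows were rich in G and C, with a median of 70.0%, against 52.7% for all windows. A match is a run of letters and not a binding site, and the windows are short. Counts of 2 and 1 in 33 windows are too small to set the members apart from all windows. The 3 matches are shown with the bases around them, 5′ to 3′ on the strand of the gene and with the match in capitals.
Wnt11: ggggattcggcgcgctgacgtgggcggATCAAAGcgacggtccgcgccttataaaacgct
Wnt5b: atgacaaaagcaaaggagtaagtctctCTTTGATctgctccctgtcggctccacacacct
Dkk1: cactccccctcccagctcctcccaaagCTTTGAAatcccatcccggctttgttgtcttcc
The stretch of Wnt11 is chr7:98835034-98835093 on the plus strand, where ATCAAAG is CTTTGAT read on the opposite strand and begins 51 bases before the start. That of Wnt5b is chr6:119449425-119449484 on the minus strand, 71 bases before 1 of its starts, and that of Dkk1 is chr19:30549581-30549640 on the minus strand, 117 bases before the start. Wnt11 and Wnt5b were both lower in set A in GCRMA, as given above. In dChip they differed by -0.44 and -0.40 and did not pass the test. Dkk1 differed between sets by 0.01 in GCRMA and by -0.27 in dChip (interval -0.53 to -0.02, adjusted limma p of 0.132). A link between the matches and these set differences was not tested.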

How the data were processed

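Total RNA of pooled newborn inner ears was labelled with biotin and hybridized to MG-U74Av2 chips. The authors normalized the same chips with GCRMA, deposited as log2 values, and with dChip, deposited as linear intensity values. Deposited dChip intensities under 1 were set to 1 and log2 was taken. The 66 Affymetrix control probe sets were left out, and 1 further probe set with a missing dChip value. Duplicate chips were averaged and genotype and set were fitted with limma 3.58.1 (R 4.3.3). The set paired the pools by the design: the set differences of both genotypes correlated at 0.752 over GCRMA probe sets and 0.688 over dChip. The interaction was fitted on the 8 chips, and p-values were Benjamini-Hochberg adjusted over all probe sets. The limma prior had 14.3 degrees of freedom in GCRMA and 4.55 in dChip, beside 1 residual. The number of arrays limits the precision. The platform annotation gave 1 symbol to 10833 probe sets, several to 396 and none to 1193. Chip values are given for the 10 members with the lowest GCRMA genotype p, the 5 with the largest set difference, genes with several probe sets, and others chosen after their values were seen. A listed pathway gene is represented by its brightest probe set. The members and lists were chosen with earlier results of these data known.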

Additional observations from a re-analysis of the deposited data

Results flagged for a closer look

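On probe set 95772_r_at of Fzd4, COUP-TFI-/- chip B1 stood apart in GCRMA: the chips read 3.97, 3.92, 3.56 and 3.90, and the gap of the lowest to its neighbour was 0.836 of the range. This was 1 of 108 such tests on the named members, of which chance gives about 1 in 20, and the level lies near the dim end of the chips.

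Siah1b was called for a genotype by set interaction in GCRMA alone: the difference between COUP-TFI-/- and wild-type ears in set A minus that in set B was 0.587 log2 units in GCRMA (adjusted limma interaction p of 0.036) and 0.463 in dChip, where it did not pass (0.078). It was 1 call among 117 listed genes (0.855%), against 0.958% of all probe sets. Some of the marker lists had their extreme sums in the COUP-TFI-/- set B pool, where Siah1b was low. Of all pools, this pool had the highest summed dChip intensities for striated muscle (41020 and 43110) and cartilage (44410 and 45800). For cartilage, wild-type set B was close to it (41070 and 40000). The same pool had the lowest for neuron (7525 and 7775) and supporting cell genes (6322 and 6916). For neuron genes, wild-type chip B2 was close to it (7815). Muscle sums were lowest in wild-type set B (25840 and 25820). The part of these lists in the Siah1b value was not tested.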

How the results depend on the processing

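The count of members called for genotype was 0 under all 16 GCRMA and 17 dChip alternatives (of 46 tested, or of 24 in GCRMA and 22 in dChip when dim probe sets, under the median, were left out), with a lowest adjusted p of 0.197 and 0.183, while the count over all probe sets ranged from 0 to 159 in GCRMA (13 as reported) and from 0 to 67 in dChip (1 as reported). With no replicate block, that is without the pairing of pools by set, 0 members and 0 probe sets were called (38 and 36 of all at an unadjusted limma p under 0.05). The sign of the genotype difference turned under some alternative for 22 members in GCRMA and 19 in dChip. The interaction count in dChip was 1 of 46 under quantile normalization and 1 of 46 under median centring (Wnt11, adjusted limma p of 0.043 and 0.048). Of all probe sets, 1.09% and 0.62% were called there. It was 1 of 22 when dim probe sets, under the median, were left out (Dvl2 161408_r_at, 0.046), against 4.31% of all. The GCRMA set count of 12 became 24 of 46 with chips as replicates in limma, against 46.1% of all probe sets. When a chip was left out it ranged from 5 (without COUP-TFI-/- A1, 16.5% of all) to 14 (without COUP-TFI-/- B2, 25.3%). The dChip set count of 3 became 23 with chips as replicates, 18 in the methods' analysis of variance, 9 after quantile normalization, 7 after median centring, 7 when dim probe sets, under the median, were left out and 0 with a floor of 16, and ranged from 0 (without COUP-TFI-/- chip B2) to 9 (without COUP-TFI-/- chip A2), with 1 without COUP-TFI-/- A1, 5 without COUP-TFI-/- B1, 6 without wild-type A2 and 7 without wild-type B2; the cause was not tested. In GCRMA the set calls of Wnt5a, Fzd4 93459_s_at, Fzd9, Sfrp1 and Ctnnb1 held under every alternative run, and the other 7 were lost under 1 to 7 of them. In dChip the calls of Wnt5a, Wnt1 and Fzd9 were lost under 2, 4 and 5.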
